A study of Mus musculus with 4 samples.

Results

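The residual m6A landscape of Mettl3-deficient liver was described as the enrichment of immunoprecipitated RNA (IP) over input RNA in hepatocyte-specific Mettl3 knockout mice (HKO). Its members are all 12815 distinct peaks of the deposited table. They were obtained by collapsing 14395 rows on chromosome, start and end, since the table gives a peak once per overlapped gene. Of the 4 libraries of the series, 2 were used here, HKO IP and HKO input. The HKO mice were Mettl3 flox/flox Alb-Cre on the C57BL/6 strain background, ate normal chow and were 8 weeks old. Cre is driven by the albumin promoter, which is active in hepatocytes, so the endothelial cells, macrophages and stellate cells of the same liver keep an intact Mettl3. Poly(A)+ RNA of whole liver, pooled from several mice, was fragmented and precipitated with an m6A antibody. The question addressed is which genes and which transcript regions kept the strongest enrichment in liver whose hepatocytes lack Mettl3.

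N6-methyladenosine is placed on nascent mRNA by a nuclear complex in which METTL3 is the catalytic subunit, METTL14 binds the RNA and WTAP, VIRMA and ZC3H13 position the pair. The mark falls mostly on a short consensus in which GGACT is a preferred form, and in normal tissue it is densest in long internal exons, around stop codons and in 3' UTRs. Other enzymes also leave methyl groups that an m6A antibody binds: PCIF1 acts on the adenosine next to the cap, giving m6Am, and METTL16 methylates U6 snRNA and hairpins in the 3' UTR of Mat2a.

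Enrichment is the HKO IP value divided by the HKO input value, both in RPM (reads scaled to a library of fixed size) with 1 read added to each count by the authors. The library totals were 17232466 reads for HKO IP and 18365473 for HKO input, and the peaks held 39.4% of the first and 20.4% of the second. The median peak had 216 IP reads and 97 input reads. With 1 library per fraction there is no replicate check, so no p-value is given. Ranges in parentheses are exact 95% counting intervals for a peak, and 95% intervals over peaks or genes for a median or a share. Reads may include PCR copies, and none of these intervals covers variation between animals or libraries. The table lists only peaks whose HKO enrichment is above 1 (the lowest is 1.00005), so regions that lost enrichment completely are not counted. It holds no peak in Mettl3, Cd36 (a fatty acid transporter) or Ccl2 (a monocyte chemoattractant), so the deletion cannot be checked on the targeted gene. The tissue label was checked on the input, in which the apolipoprotein gene Apoa1, a hepatocyte marker, reached 3686 RPM in its peak.

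The sequences below are examples from the 24 peaks with the highest lower counting limits, chosen after their values were seen to show genes known from mesenchyme, vessels and leukocytes, and the capitals mark GGACT, the preferred m6A consensus. Each is a stretch of 25 nt around the match nearest to the middle of the peak, 5' to 3' on the transcript strand, from GENCODE transcripts of the GRCm38 build.
Hand2: gccccagcttGGACTcgccccggat
Pdgfra: gttgagaagaGGACTtgggtgatgt
Il10ra: cagatacaggGGACTctgggaaaag
Kcnj8: tgtactctgtGGACTattccaaatt
Itga8: tatgatgttgGGACTatgaaagtgc
Rgs1: aaatacagtgGGACTctattcaaac
Cmklr1: ggacgcctagGGACTtgtctccgga
Bmp2: ctttgtatgtGGACTtcagtgatgt

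The Hand2 stretch lies in the 5' UTR, in exon 1, at chr8:57321451-57321475 on the plus strand. Those of Pdgfra (chr5:75195180-75195204, plus, exon 23), Itga8 (chr2:12108638-12108662, minus, exon 30), Rgs1 (chr1:144245048-144245072, minus, exon 5) and Cmklr1 (chr5:113613758-113613782, minus, exon 3) lie in the 3' UTR part of the last exon. Those of Il10ra (chr9:45256204-45256228, minus, exon 7), Kcnj8 (chr6:142565855-142565879, minus, exon 3) and Bmp2 (chr2:133561423-133561447, plus, exon 3) lie in the coding part of the last exon. A match is a description of the letters under the peak and does not place a methyl group.

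A second set shows the annotated first bases of the transcripts with the strongest peaks at a transcript start, where the capital marks the first annotated base.
Wdr45: Tccctcctccggaagtaagacctga
Ptprf: Gggcgggcgggcgcgcgcggctgga
Oaz2: Ggcggttgcgcggcggcggccgggg

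These lie in exon 1 at chrX:7722217-7722241 on the plus strand (Wdr45), chr4:118291381-118291405 on the minus strand (Ptprf) and chr9:65676548-65676572 on the plus strand (Oaz2). As annotated, none of the 3 begins with A. Of all 1959 peaks near a transcript start, 628 (32.1%) lay on transcripts whose annotated first base is A. Whether PCIF1 acts on these transcripts was not tested. Start sites used in liver were not measured.

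Enrichment in HKO liver was moderate at most peaks and very high at a few. The median was 2.31-fold (2.28 to 2.33), with 1.32-fold at the 10th percentile, 5.0-fold at the 90th and 11.3-fold at the 99th. In all, 7894 peaks (61.6%) were at least 2-fold enriched, 2157 (16.8%) at least 4-fold and 384 (3%) at least 8-fold. The lower counting limit was above 1 at 11782 peaks (91.9%) and at or above 4 at 981 (7.66%). These values use the library totals. Scaling to the reads inside the listed peaks instead divides every enrichment by 1.93, a log2 shift of -0.95, and brings the median to 1.19-fold, so the order of peaks holds on either scale and the fold sizes do not.

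Enrichment fell steeply with the number of input reads. The median was 5.96-fold at peaks with under 20 input reads, 3.31-fold from 20 to 49, 2.42-fold from 50 to 99, 2.04-fold from 100 to below 200, 1.85-fold from 200 to below 500 and 1.62-fold at 500 or more. The share at least 4-fold enriched went from 71.5% in the lowest of these bins to 1.54% in the highest. Input is the divisor of the ratio and only ratios above 1 are listed, so some of this fall is built in. How much is built in, and the part of peak calling, which needs enough reads, were not tested. The 2882 peaks that the table marks as not called in HKO had a median of 1.48-fold, against 2.54-fold at the 9933 called ones.

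**Figure D1:**
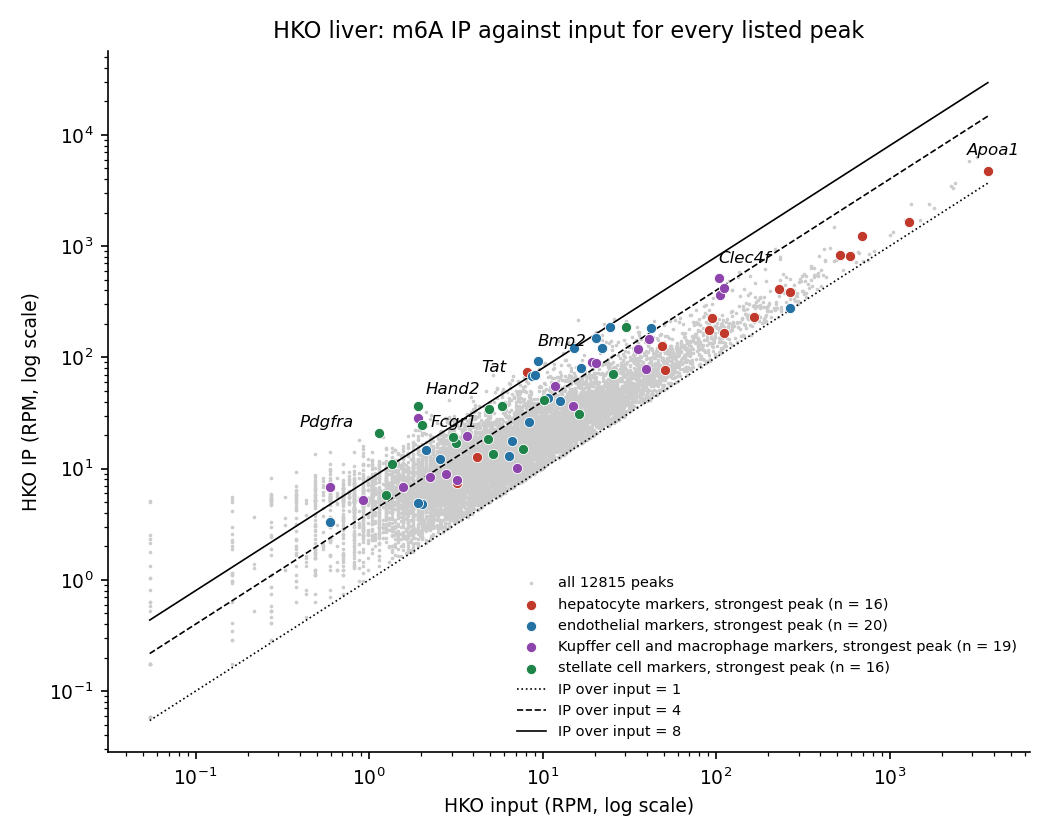
IP against input RPM in HKO liver for all 12815 peaks (grey, both axes log scale), with the strongest peak of each hepatocyte, endothelial, macrophage and stellate marker gene in colour and lines at ratios of 1, 4 and 8. Hepatocyte markers (red), Tat aside, lie between the lines at 1 and 4, up to Apoa1 at the highest input, and the stellate markers Hand2 and Pdgfra lie above the 8-fold line at low input.

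By the annotation of the peak centre, the 5' side of transcripts had the higher typical enrichment and the 3' side the longer upper tail. Peaks centred in the 5' UTR (n = 1071) had a median of 2.70-fold (2.63 to 2.79) and those in the first exon (n = 807) 2.65-fold. Internal exons (n = 2972) had 2.48-fold. Last exons (n = 2371) had 2.04-fold and 3' UTRs (n = 2574) had the lowest median of these classes, 1.95-fold (1.91 to 1.99). The 5' UTR median was 1.38 times that of the 3' UTR.

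The share of weak peaks ran the same way. Under 1.5-fold were 27.5% of 3' UTR peaks and 24.8% of last exon peaks, against 6.44% of 5' UTR and 7.06% of first exon peaks. At 4-fold or more the order still favoured the 5' side, with 20.7% of 5' UTR peaks and 13.1% of 3' UTR peaks beside 16.8% of all. At 8-fold or more it turned, with 3.96% (3.24 to 4.79) of 3' UTR peaks and 3.29% (2.61 to 4.09) of last exon peaks beside 2.05% (1.29 to 3.09) of 5' UTR, 1.86% of first exon and 2.15% (1.66 to 2.74) of internal exon peaks. Among the 384 peaks at 8-fold or more, 102 (26.6%) lay in 3' UTRs and 78 (20.3%) in last exons. Of all peaks, 20.1% and 18.5% did. Under 20 input reads were found at 232 of the 384. The classes also differed in calling. Called in HKO were 94.6% of 5' UTR and 91.1% of first exon peaks, against 68.8% of last exon and 63.8% of 3' UTR peaks. Among called peaks the median was 2.77-fold in 5' UTRs and 2.28-fold in 3' UTRs. The part of calling in the shares of weak peaks was not tested.

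Input depth was taken into account next. In every bin of input reads from 20 upwards the 5' UTR median was above that of the 3' UTR: 3.63 against 2.83-fold from 20 to 49 reads, 2.80 against 2.08 from 50 to 99, 2.28 against 1.84 from 100 to below 200, and 1.86 against 1.5 at 500 or more. Below 20 reads the medians were 6.90-fold and 6.39-fold with overlapping intervals. The upper tail of the 3' UTR was less firm. With at least 20 input reads, 1.82% (1.32 to 2.43) of 3' UTR peaks and 1.06% (0.531 to 1.89) of 5' UTR peaks reached 8-fold. Among peaks with at least 50 input reads, 17 of 2003 in 3' UTRs (0.849%, 0.495 to 1.36), 4 of 796 in 5' UTRs (0.503%, 0.137 to 1.28) and none of 618 in first exons (up to 0.595%) reached 8-fold, with overlapping intervals.

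Intronic peaks (n = 700) had a median of 2.67-fold and 117 peaks whose centre lay outside the gene they overlapped had 2.68-fold. The 1003 peaks that overlapped no annotated gene had 2.43-fold, and 1200 peaks with several classes, mostly where genes overlap, had 2.25-fold. Shares at 8-fold or more were 3.29%, 5.13%, 4.19% and 2.67% in that order. Without knowing whether the libraries kept strand, an intronic peak cannot be told from a peak in a gene on the other strand.

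**Figure D2:**
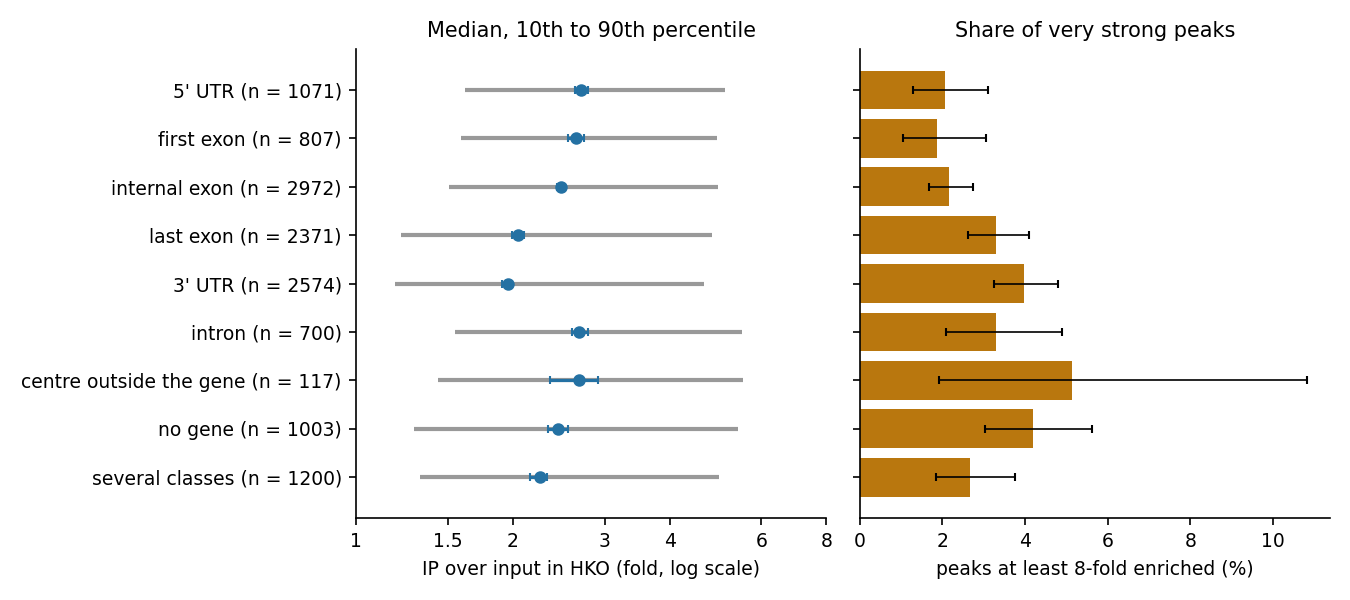
HKO enrichment by class of the peak centre. On the left, points are medians with 95% intervals and grey lines run from the 10th to the 90th percentile (log scale), and on the right, bars are the share of peaks at least 8-fold enriched with exact 95% intervals; 5' UTR and first exon peaks have the higher medians among exonic classes, 3' UTR and last exon peaks the higher shares at 8-fold.

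The contrast of medians also appeared when the middle of the exonic part of each peak was placed on a reference transcript. This was possible for 11585 peaks. Within 200 nt of a transcript start (n = 1959) the median was 2.76-fold, in coding sequence (n = 3879) 2.39-fold, in 3' UTRs (n = 1834) 1.96-fold and within 200 nt of a stop codon (n = 2649) 1.88-fold, with median inputs of 95, 86, 114.5 and 124 reads in that order. Along coding transcripts the median was 3.06-fold (2.90 to 3.20) in the first 100 nt, 2.68-fold in the next 100 nt and between 1.91 and 2.2-fold in every bin from 400 to 2000 nt. Towards the stop codon it was 2.51-fold from 300 to 200 nt upstream and dropped to 1.75-fold (1.69 to 1.81) between 100 and 200 nt downstream, the lowest bin. The lowest medians in HKO liver thus lay just past the stop codon. By these places, 8-fold or more was reached by 1.84% of peaks near starts and 2.91% (2.41 to 3.49) in coding sequence. The shares were 2.91% (2.30 to 3.62) near stop codons and 3.65% (2.84 to 4.62) in 3' UTRs. The upper tail near stop codons was thus no longer than in coding sequence.

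**Figure D3:**
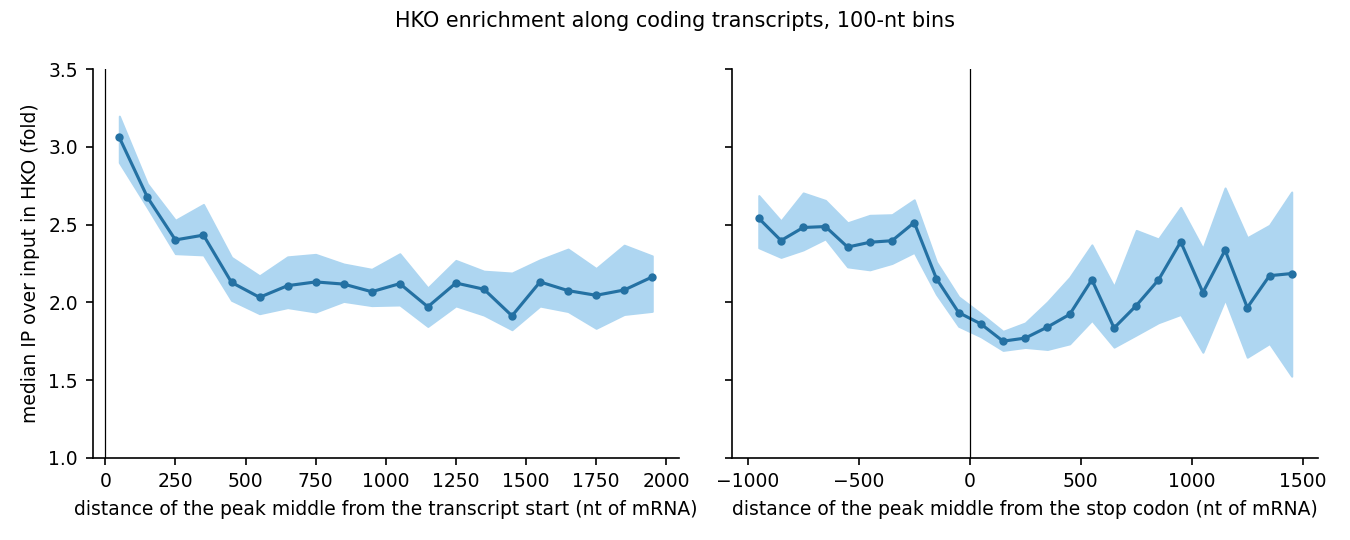
Median HKO enrichment (fold) in 100-nt bins by distance of the peak middle from the transcript start (left) and from the stop codon (right), with the 95% interval of each median as a band. Values are highest in the 100 nt after the start (3.06-fold) and lowest 100 to 200 nt after the stop codon (1.75-fold).

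Within single genes the start was also the stronger site. In 708 genes with 1 or more peaks at each end, meaning near the start and near the stop or in the 3' UTR, the start peak was higher in 590 (83.3%). The median log2 difference of start over stop or 3' UTR was 0.64 (0.59 to 0.72), from medians of 2.85-fold and 1.75-fold. The peaks compared differed in depth, with a median of 88 input reads at starts and 259 at stops. Where both had at least 100 input reads (315 genes) the start was higher in 81.3%, with a median log2 difference of 0.50 (0.43 to 0.62). In 224 genes the start was at least 2-fold higher, and in 13 the stop or 3' UTR was. Over all placed peaks, 96.5% near starts, 65.4% near stop codons and 63.2% in 3' UTRs were called in HKO. The part of calling in these pairs was not tested.

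Examples from both ends of these pairs were chosen after their values were seen. Wdr45, which encodes the autophagy protein WIPI4, had 12-fold at its start and 1.13-fold near its stop codon or 3' UTR. Epha2, an ephrin receptor kinase, had 11.6-fold and 1.15-fold. In the other direction Eng, a co-receptor for TGF-beta, had 1.84-fold at its start and 7.70-fold near its stop codon or 3' UTR, and Anp32a, a histone-binding acidic nuclear phosphoprotein, had 2.22-fold and 8.51-fold. The annotated first base of the transcript made little difference, with medians of 2.76-fold for A, 2.71-fold for C, 2.76-fold for G and 2.79-fold for T.

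Enrichment was higher in short internal exons than in long ones. Peaks in internal exons of up to 200 nt (n = 1468) had a median of 2.61-fold (2.52 to 2.70) and 21.2% at 4-fold or more, against 2.28-fold (2.18 to 2.43) and 14.2% in internal exons longer than 1000 nt (n = 628). Their median inputs were 70 and 89 reads. In last exons longer than 1000 nt (n = 3977) the median was 1.99-fold. Transcripts with many peaks showed how far sites within an mRNA can differ. Myh9, non-muscle myosin heavy chain, had 15 peaks from 1.59 to 4.61-fold, Cgnl1, a junction protein, 13 from 1.23 to 6.84-fold, and Rdx, the membrane-actin linker radixin, 10 from 1.14 to 8.17-fold.

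The firmest peaks of the HKO liver were ranked by the lower counting limit among peaks with at least 20 input reads, with 1 peak per gene and without predicted genes. The 24 highest had enrichments of 8.85 to 19-fold, lower limits of 7.92 or more and 20 to 412 input reads (median 39). By the deposited annotation, 10 had their centre in the 3' UTR, 5 in the last exon and 4 in an internal exon. A further 2 lay in the 5' UTR, 1 in an intron and 2 in several classes. Placed on a reference transcript, 11 lay in coding sequence, 6 in the 3' UTR and 4 near a stop codon. Of the rest, 1 lay in the 5' UTR, 1 near a transcript start and 1 was not placed. By the marker lists, 3 of the 24 genes were stellate, 1 endothelial, 1 macrophage and 0 hepatocyte markers, while the 6011 genes ranked held 16, 18, 19 and 15 of them. Among the 100 highest, 38 were annotated to the 3' UTR and 21 to the last exon. Of the 6011 genes ranked, 22.4% were annotated to the 3' UTR, 19.55% to the last exon and 20.4% to internal exons. By placement 32 of the 100 lay in coding sequence, 28 near a stop codon, 22 in the 3' UTR and 10 near a start. Over the 6011 these shares were 28.7%, 24.3%, 15.3% and 21.9% in that order. The last exon, coding and stop codon counts of the 100 were near these shares.

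At the top stood Hand2, a bHLH transcription factor of liver mesenchyme, with 624 IP reads (36.3 RPM) and 34 input reads (1.91 RPM) in its 5' UTR at chr8:57321005-57321735, a ratio of 19 (13.9 to 28.5). Pdgfra, a receptor of platelet-derived growth factor on mesenchymal cells, had 361 and 20 reads (21 and 1.14 RPM) in its last exon at chr5:75195070-75195669, a ratio of 18.4 (12.3 to 31.9). Its partner receptor Pdgfrb had 425 and 36 reads (24.7 and 2.02 RPM) in the 3' UTR, a ratio of 12.3 (8.94 to 18.2). All 3 are on the stellate marker list. Itga8, an integrin subunit of smooth muscle and related cells, had 332 and 21 reads (19.3 and 1.20 RPM) in its 3' UTR, a ratio of 16.1 (10.8 to 27.6). Hic1, a zinc finger repressor of mesenchymal progenitors, had a ratio of 11.7 (8.44 to 17.6), and Emilin1, an elastic fibre glycoprotein, 8.85 (8.00 to 9.85) from 3428 and 412 reads.

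Genes known from blood vessels were also among the 24. Kcnj8, the pore subunit of the vascular ATP-sensitive potassium channel, had 713 and 52 reads (41.4 and 2.89 RPM) at chr6:142565370-142566289, a ratio of 14.4 (11.0 to 19.8). Bmp2, the endothelial signal that induces hepcidin in hepatocytes, had 1606 and 172 reads (93.3 and 9.42 RPM) in its last exon, a ratio of 9.90 (8.50 to 11.7). Gja4, the arterial gap junction protein connexin 37, had 2356 and 256 reads, a ratio of 9.77 (8.62 to 11.2). Calcrl, the receptor for adrenomedullin, had a ratio of 10.5 (7.97 to 14.7).

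Others are known from leukocytes and macrophages. Il10ra, the ligand-binding chain of the interleukin-10 receptor, had 560 and 38 reads (32.6 and 2.12 RPM) at chr9:45255498-45256370, a ratio of 15.3 (11.3 to 22.4). Fcgr1, the high-affinity IgG receptor of macrophages, had 488 and 34 reads (28.4 and 1.91 RPM), a ratio of 14.9 (10.8 to 22.3). Rgs1, a brake on chemokine receptor signalling in leukocytes, had 2418 and 225 reads (140 and 12.3 RPM), a ratio of 11.4 (9.99 to 13.2), from the deepest input among the 10 highest. Cmklr1, the receptor for the chemoattractant chemerin, had 13.2-fold (9.79 to 19). Cd180, a Toll-like receptor homologue, had 11.5-fold, Evi2b, a leukocyte membrane protein encoded inside an intron of Nf1, 10.4-fold, and Gpr65, a proton-sensing receptor, 9.66-fold.

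The remainder of the 24 were more widely expressed genes or peaks inside other genes. Jdp2, a repressor that dimerizes with Jun, had 1198 and 94 reads (69.6 and 5.17 RPM) and 13.5-fold (11.0 to 16.9). Itpkb, an inositol trisphosphate kinase, had 12.1-fold, Akap12, a kinase-anchoring scaffold, 11.6-fold and Arl4c, a small GTPase, 11.1-fold. The peak in Nop58, a core protein of box C/D snoRNPs, reached 11.3-fold (8.98 to 14.9) in exon 14, with the start of Snord11 as the nearest one. The peak in intron 41 of the thyroglobulin gene Tg, 12.4-fold (9.20 to 18), had the start of Sla, an adaptor protein of leukocytes, as the nearest one. A predicted gene left out by the rule, Gm9800, would have ranked among the highest, with 3707 and 292 reads and 13.5-fold (12 to 15.3), and pseudogene-like models can share reads with near-identical copies.

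The highest peaks of the remaining classes were mostly in broadly expressed genes. In 5' UTRs, Hand2 and Wdr45 were followed by Oaz2, an inhibitor of polyamine synthesis (10.2-fold, 7.40 to 15.0), and Ptprf, a receptor tyrosine phosphatase (9.83-fold, 7.50 to 13.6). First exons were led by Chd3, a chromatin remodeller (9.71-fold), Spag7 (10.1-fold), Ppp1r9b, the scaffold spinophilin (8.92-fold), and Hnrnpm, a splicing regulator (7.38-fold). In introns, Tg was followed by Tat (9.0-fold), Txnrd1, thioredoxin reductase (10.5-fold), and the bile canaliculus transporter Abcc2 (9.62-fold). Peaks centred outside the gene were led by Rarres2, which encodes chemerin itself, with 589 and 72 reads (34.2 and 3.98 RPM) at its start and 8.61-fold (6.82 to 11.3). Rabl6 (5.70-fold), Mir2861 (4.71-fold) and the nuclear receptor gene Nr2f2 (4.29-fold) followed. Where genes overlapped, Filip1l (8.90-fold) and the immune checkpoint gene Vsir (10.3-fold) joined Evi2b and Gpr65.

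Marker genes of the liver's cell types fell on both sides of the background of all genes. Each gene was represented by its peak with the highest lower limit. All 7835 genes with a peak had a median of 2.61-fold, 1823 of them (23.3%) were at 4-fold or more and 4.45% at 8-fold or more. Of 23 hepatocyte markers 16 had a peak, with a median of 1.69-fold (1.40 to 2.39) and 1 at 4-fold or more (6.25%, 0.158 to 30.2). Of 21 stellate markers 16 had a peak, with 5.83-fold (2.79 to 8.10) and 11 at 4-fold or more (68.8%, 41.3 to 89.0). Of 24 endothelial markers 20 had a peak, with 4.81-fold (3.16 to 7.27) and 12 (60%, 36.1 to 80.9). Of 22 Kupffer cell and macrophage markers 19 had a peak, with 3.79-fold (3.24 to 5.0) and 9 (47.4%, 24.5 to 71.1). The shares of the stellate, endothelial and macrophage lists stood above the 23.3% of all genes. That of the hepatocyte list was lower, with an interval that includes 23.3%. Without transcript starts the macrophage share was 29.4% (10.3 to 56.0), an interval that includes the 20.7% of all genes in that setting.

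Input depth moved with these lists. Median input was 2533 reads for the hepatocyte markers, 216 for macrophage, 169 for endothelial and 88.5 for stellate markers, against 91 for all genes. At 100 input reads or more, a limit chosen after the data were examined, 8.54% of all genes were at 4-fold or more, beside 9 of 15 endothelial, 4 of 11 macrophage, 3 of 6 stellate and 1 of 14 hepatocyte markers. At that limit the hepatocyte share was 7.14%, near that of all genes. All peaks with 500 or more input reads had a median of 1.62-fold, beside 1.69-fold for the hepatocyte markers. The part of input depth in the difference was not tested beyond this, since most hepatocyte markers lie beyond the input of any stellate marker. In whole liver, the RNA of a few cell types contributes to each IP and input value, and which cells supplied the reads of a gene was not measured.

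Among stellate markers outside the 24, Lrat, which esterifies retinol for storage, had 588 IP and 89 input reads and 6.98-fold (5.63 to 8.90), and Colec11, a collectin, 3235 and 552 reads and 6.24-fold (5.71 to 6.85). Values of the list went down to 1.90-fold. Among endothelial markers Kdr, a receptor for VEGF, had 2083 and 277 reads in its 3' UTR and 7.99-fold (7.07 to 9.12). Eng had 7.70-fold (6.99 to 8.53), Ptprb, a vascular tyrosine phosphatase, 7.79-fold (6.63 to 9.30), and Fcgr2b, the inhibitory IgG receptor of sinusoidal endothelium, 7.27-fold (6.53 to 8.14). The lowest of this list, 1.04-fold, was Egfl7, named after its value was seen, whose peak was placed on the neighbouring gene Agpat2.

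Among Kupffer cell and macrophage markers Clec4f, a lectin that defines Kupffer cells in the mouse, had 8905 and 1898 reads and 5.0-fold (4.76 to 5.26). Vsig4, a complement receptor, had 5.36-fold (4.16 to 7.18) and the complement gene C1qa 4.66-fold (4.16 to 5.26). Laptm5, a lysosomal protein of haematopoietic cells, had 11.5-fold (6.60 to 26.9) from 118 and only 10 reads, in an intron.

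Hepatocyte markers were mostly under 2-fold (11 of 16), with narrow limits. Apoa1 had 81258 and 67692 reads and 1.28-fold (1.27 to 1.29). At transcript starts, Asgr2, a subunit of the asialoglycoprotein receptor, had 3.03-fold, Apob, the structural protein of VLDL, 2.63-fold, the fatty acid binding protein gene Fabp1 2.39-fold and the fibrinogen gene Fga 1.94-fold. Ass1, a urea cycle enzyme named after its value was seen, had 2.29-fold in an intron. Alb, named after its value was seen because its promoter drives Cre, had 1.45-fold (1.40 to 1.5), also at its start. The exception was a peak in intron 4 of Tat, tyrosine aminotransferase, with 1266 and 149 reads and 9.0-fold (7.64 to 10.8). Tat had only 1.42-fold at its start and 1.11-fold near its stop codon or 3' UTR. When the median over a gene's peaks was used, no hepatocyte marker was at 4-fold or more, beside 15.3% of all genes.

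Where the strongest peak lay also differed between the lists. It was near a transcript start in 7 of 16 hepatocyte markers (43.8%, 19.8 to 70.1), 1 of 20 endothelial and 1 of 16 stellate markers, beside 22.6% of all genes. The intervals of these start shares all include 22.6%. The strongest peak was in the 3' UTR or near the stop codon in 16 of 20 endothelial (80%, 56.3 to 94.3) and 12 of 16 stellate markers (75%, 47.6 to 92.7), beside 36.9% of all genes. It was there in 3 of 16 hepatocyte markers (18.8%, 4.05 to 45.65), an interval that includes 36.9%. For macrophage markers it was in coding sequence in 10 of 19 and in the 3' UTR or near the stop codon in 2. Of 10 cholangiocyte markers 4 had a peak, up to 4.42-fold at Spp1, the secreted glycoprotein osteopontin, with Anxa4 at 3.53 and Sox9 at 3.47-fold. Of 16 lymphocyte markers 2 had a peak, Cd74, the invariant chain, at 4.89-fold and Ptprc, the pan-leukocyte phosphatase CD45, at 3.08-fold.

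**Figure D4:**
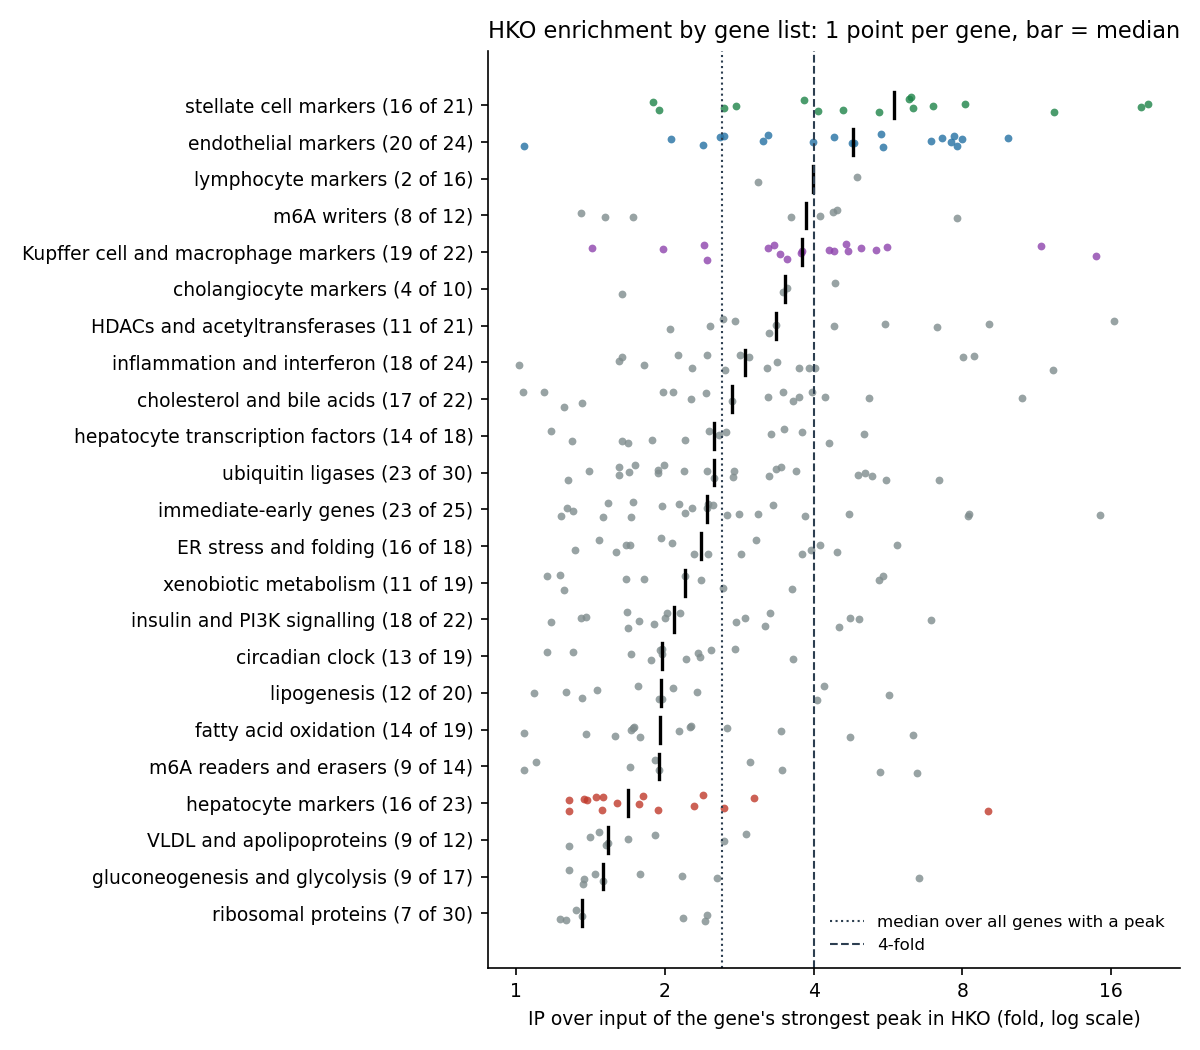
HKO enrichment of the strongest peak per gene (fold, log scale) for each gene list, 1 point per gene and a bar at the median, with lines at the median of all genes with a peak (2.61-fold) and at 4-fold and the number of members with a peak in brackets. Stellate markers (5.83-fold) and endothelial markers (4.81-fold) have the highest medians, hepatocyte markers (1.69-fold), VLDL genes (1.54-fold), gluconeogenesis and glycolysis genes (1.5-fold) and ribosomal protein genes (1.36-fold) the lowest.

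Genes of the m6A machinery were few, and their counts at 4-fold moved with input depth. Of 12 writer genes 8 had a peak, with a median of 3.86-fold and 4 at 4-fold or more (50%, 15.7 to 84.3, beside 23.3% of all genes). With at least 50 input reads 0 of 6 were (11.6% of all genes), with a median of 1.77-fold. By the median over a gene's peaks 2 of 8 were (15.3% of all genes). Zc3h13, which anchors the writer complex in the nucleus, had 226 and 30 reads and 7.80-fold (5.47 to 12.2) in an internal exon. Virma, its scaffold, had 4.47-fold (3.16 to 6.75), Wtap, the regulatory subunit, 4.38-fold (3.21 to 6.28) at its start, Rbm15b, an RNA-binding adaptor, 4.12-fold (2.65 to 7.15) from 22 input reads, and Cbll1, the ligase HAKAI, 3.6-fold (2.87 to 4.60). Of 14 readers and erasers 9 had a peak, with 1.95-fold and 2 at 4-fold or more (22.2%). The nuclear reader Ythdc1 had 863 and 141 reads and 6.49-fold (5.45 to 7.85), Fmr1, a translational regulator, 5.44-fold from 18 input reads, Elavl1, the stabilizing protein HuR, 3.46-fold, the cytoplasmic reader Ythdf3 2.97-fold and Hnrnpc 1.91-fold.

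Metabolic gene lists were small, and the intervals of their shares at 4-fold included the 23.3% of all genes, so these shares are given as a description only. Of 12 genes for VLDL and apolipoproteins 9 had a peak, 0 of them at 4-fold (up to 33.6%), with a median of 1.54-fold. Lipc, hepatic lipase, had 2.92-fold (2.52 to 3.41), Apoa5 1.91-fold, Apoc2 1.54-fold and Apoc1 1.47-fold. For gluconeogenesis and glycolysis, 9 of 17 had a peak, with 1.5-fold and 1 at 4-fold (11.1%, 0.281 to 48.3). Pyruvate carboxylase (Pcx) had 2.56-fold, pyruvate kinase (Pklr) 2.17-fold and Gpi1 1.5-fold. For fatty acid oxidation, 14 of 19 had a peak, with 1.96-fold and 2 at 4-fold (14.3%, 1.78 to 42.8), both at transcript starts. These were the peroxisomal enzyme Ehhadh (862 and 144 reads, 6.34-fold, 5.34 to 7.67) and the acyl-CoA dehydrogenase Acadl (4.74-fold, 3.88 to 5.91). Acadvl had 2.67-fold and Hadh 2.26-fold.

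For lipogenesis, 12 of 20 had a peak, with 1.96-fold and 3 at 4-fold (25%, 5.49 to 57.2). These were G0s2, an inhibitor of the lipase ATGL (5.68-fold, 4.72 to 6.95), the fatty acid elongase Elovl6 (4.19-fold, 3.36 to 5.37) and Mlxipl, the factor ChREBP (4.06-fold, 3.29 to 5.10), while fatty acid synthase (Fasn) had 2.33-fold and Lpin2 2.08-fold. For cholesterol and bile acids, 17 of 22 had a peak, with 2.73-fold and 3 at 4-fold (17.7%, 3.80 to 43.4). With at least 50 input reads 0 of 16 were, beside 11.6% of all genes. The bile acid receptor gene Nr1h4 had 10.6-fold (6.02 to 24.7) from 10 input reads in an intron, the bile salt export pump gene Abcb11 5.18-fold (3.65 to 7.90) and Nr1h3, the factor LXR-alpha, 4.22-fold (2.76 to 7.11). The sterol transporter gene Abcg8 had 3.74-fold and Cyp7a1, the rate-limiting enzyme of bile acid synthesis, 3.47-fold (2.92 to 4.18) in its 3' UTR. For xenobiotic metabolism, 11 of 19 had a peak, with 2.20-fold and 2 at 4-fold (18.2%, 2.28 to 51.8), Cyp2c29 (5.54-fold) and Cyp3a13 (5.43-fold), both in introns. The xenobiotic receptor genes Nr1i3 and Nr1i2 had 3.61-fold and 2.63-fold and Ugt2b5 2.37-fold.

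For insulin and PI3K signalling, 18 of 22 had a peak, with 2.08-fold. With at least 50 input reads 1 of 17 was at 4-fold, beside 11.6% of all genes. Over all peaks 4 were at 4-fold (22.2%, beside 23.3% of all genes). These were the regulatory subunit gene Pik3r1 (6.90-fold from 18 input reads), its catalytic partner Pik3ca (4.73-fold, 3.76 to 6.14), the mTORC1 inhibitor Tsc1 (4.94-fold) and the growth factor Igf1 (4.50-fold), and the factor Foxo3 had 2.91-fold. For ER stress and folding, 16 of 18 had a peak, with 2.37-fold and 3 at 4-fold (18.8%), the chaperones Canx (5.90-fold, 5.33 to 6.57) and Hsp90b1 (4.46-fold, 4.10 to 4.87) and the degradation adaptor Sel1l (4.12-fold). Calr, with 9179 and 2469 reads, had 3.96-fold (3.79 to 4.14) and the co-chaperone gene Dnajb9 3.80-fold. For the circadian clock, 13 of 19 had a peak, with 1.97-fold and 0 at 4-fold (up to 24.7%). Named members were Dbp (3.64-fold), Clock (2.78-fold), Nr1d2 (2.48-fold), Nfil3 (2.35-fold) and Nr1d1 (2.34-fold). The Clock peak was placed on a pseudogene that overlaps it.

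Of 25 immediate-early genes 23 had a peak, with 2.44-fold and 4 at 4-fold (17.4%, beside 23.3% of all genes). Klf2, a flow-induced factor of endothelium, had 2889 and 374 reads near its stop codon and 8.21-fold (7.39 to 9.19), and Klf4, a related factor, 8.26-fold (6.20 to 11.7). Egr2, a zinc finger factor, had 15.2-fold (7.80 to 49.1) from 6 input reads, Socs3, the inhibitor of JAK-STAT signalling, 4.71-fold (3.91 to 5.77) and Nr4a1, an orphan nuclear receptor, 3.84-fold. Of 24 genes of inflammation and interferon 18 had a peak, with 2.90-fold and 4 at 4-fold (22.2%). With at least 50 input reads 1 of 16 was, beside 11.6% of all genes. Over all peaks the shares of both lists are near that of all genes and single out neither list. The interferon receptor chain Ifnar2 had 624 and 78 reads and 8.43-fold (6.73 to 10.9), and the Toll-like receptor genes Tlr4 and Tlr2 had 12.2-fold (7.41 to 25) and 8.03-fold (4.88 to 16.1) from 13 and 14 input reads. The interleukin-1 receptor gene Il1r1 had 3.74-fold.

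Of 21 HDACs and acetyltransferases with their partners 11 had a peak, with 3.36-fold and 5 at 4-fold (45.5%, 16.8 to 76.6, beside 23.3% of all genes). With at least 50 input reads 2 of 11 were at 4-fold (11.6% of all genes). By the median over a gene's peaks 1 of 11 was (15.3% of all genes). The 5 included the corepressor Ncor1 (9.04-fold, 6.29 to 14.3) and the acetyltransferases Kat6b (5.59-fold) and Kat6a (4.40-fold). Their median input was 50 reads. Hdac1 and Hdac2, studied with METTL3 by the authors, had no listed peak, and Cdk9 had 1.05-fold. Of 30 ubiquitin ligases 23 had a peak, with 2.51-fold and 5 at 4-fold (21.7%, near the share of all genes). Away from transcript starts 1 of 22 was at 4-fold, beside 20.7% of all genes. Among the 5 were Ubr4 (5.61-fold), Cul3 (5.26-fold), Fbxw7 (5.09-fold) and Znrf3 (4.91-fold). Of 18 genes listed as hepatocyte transcription factors 14 had a peak, with 2.52-fold and 2 at 4-fold (14.3%). Nr2f2, whose peak was centred outside the gene, was among the 2. Hnf4a had 3.79-fold, Prox1 3.49-fold and Onecut1 3.28-fold. Of 30 ribosomal protein genes 7 had a peak, with 1.36-fold and 0 at 4-fold, led by Rpl4 (2.43-fold), Rpl13 (2.42-fold) and Rpsa (2.17-fold), then Rpl13a (1.36-fold) and Rpl8 (1.32-fold).

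GGACT was most frequent at the weakest and at the very strongest peaks. It was searched on the transcript strand within 100 nt on either side of the peak middle, and 27.7% of the 11585 placed windows held it. The share was 35.8% (33.7 to 37.9) at peaks between 1 and 1.5-fold, 22.2% between 4 and 6-fold and 35.0% at 8-fold or more. Peaks at 4-fold or more held it in 24.5% and those under 4-fold in 28.3%. Near stop codons and in 3' UTRs the share was 35.5% over all peaks and 43.8% (35.5 to 52.3) of 144 peaks at 8-fold or more. At transcript starts it was 20.7%. Peaks with GGACT in the window had a lower median enrichment, 2.1-fold (2.06 to 2.15), than those without, 2.35-fold (2.32 to 2.38), at 97 and 101 median input reads.

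Under the whole peak, 20 of the 23 placed peaks among the 24 highest held GGACT (87.0%, 66.4 to 97.2), as in the stretches printed above, against 38.3% of all placed peaks. Those peaks were also wider, with a median of 872 nt against 295 nt, and 67.6% of all placed peaks of 600 to below 1000 nt held the motif. In the fixed window 8 of the 23 did (34.8%, 16.4 to 57.3), which overlaps the 27.7% of all.

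**Figure D5:**
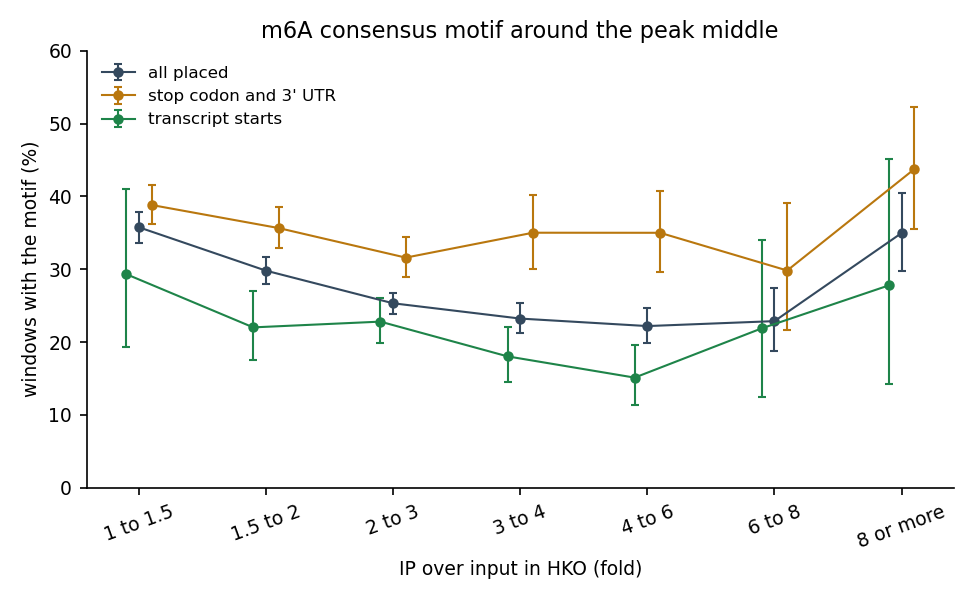
Share of windows that hold the consensus motif (%, exact 95% intervals), within 100 nt on either side of the peak middle, by HKO enrichment for all placed peaks, for those in a 3' UTR or near a stop codon and for those at transcript starts. Over all placed peaks the share is 35.8% in the lowest bin, 22.2% at 4 to 6-fold and 35.0% at 8-fold or more.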

How the data were processed

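m6A RIP-seq libraries of HKO liver, 1 IP and 1 input, were analysed. Per the submitters' processing notes, the genome build was GRCm38 and the tools included BWA 0.7.12-r1039, HOMER, FastQC and MACS2 2.1.0. The study's methods give exomePeak as caller, which differs. Whether reads kept strand was not given in sources used here. The deposited read counts per peak were not normalized by the authors. The deposited RPM values equal the count plus 1, scaled to RPM by the library total. Peaks were merged across both genotypes by the authors. The deposited fold of HKO and flox mice and its log2 change were not used. The ratio of IP to input RPM was computed here, with exact (Clopper-Pearson) 95% intervals of IP among IP plus input reads, and medians with order-statistic intervals. The number of per-sample columns not mapped was 0. Of 7835 gene identifiers, 7831 were in the reference annotation (GENCODE, GRCm38), and 11585 peaks were placed on a transcript, 10362 on a coding one. Peak coordinates are as deposited.

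Genes were named by rule: the 24 peaks with the highest lower limit among peaks with at least 20 input reads, 1 per gene and without predicted genes, the 4 highest in each class, up to 5 members of each list, Mettl3, Cd36 and Ccl2, and the 5 genes with the most IP reads in a peak. Some genes that the rule names are not reported here. The lists and the rule were chosen with earlier results of these data known. Alternatives were other scalings, added counts, input limits, fold sizes, placements and motifs. The intervals were tested on simulated data. Computation used scipy 1.17.1, pandas 2.3.3, numpy 2.4.6 and matplotlib 3.10.9 under Python 3.11.15.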

Additional observations from a re-analysis of the deposited data

How the results depend on the processing

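With 1 library per fraction, leaving out a replicate was not possible. No paired analysis was possible because each group holds 1 library and no pair of replicates exists. The ratio of the 5' UTR to the 3' UTR median stayed above 1 in all alternatives run: 1.38 as reported, 1.22 with peaks called in HKO, 1.49 by placement on transcripts and 1.27 with at least 100 input reads. The count of strongly enriched peaks, 2157 at 4-fold, was 7894 at 2-fold, 384 at 8-fold, 981 by the lower counting limit, 764 with at least 50 input reads, 326 with at least 100 and 414 when scaled to reads inside the peaks. The share of peaks at 4-fold or more with GGACT was 24.5%. It was 70.7% when other forms of the consensus were searched instead, namely GGACA, the form AGACT, the form GAACT or the form GGACC. Under 4-fold the shares were 28.3% and 71.2%, so the other forms did not set the stronger peaks apart. Hepatocyte markers at 4-fold numbered 1, and 0 by the median over a gene's peaks. Macrophage markers numbered 9 of 19. Without transcript starts they numbered 5 of 17 (29.4%, 10.3 to 56.0), beside 20.7% of all genes. Counting only peaks with at least 100 input reads, they numbered 4 of 14. Stellate markers numbered 11 of 16, and 3 of 7 among peaks with at least 100 input reads. The limits of at least 100 input reads were chosen after the data were examined. Over the other lists, 69 of 100 counts stayed within 1.5 times the main one and 31 did not. Low input limits the strongest values: 22 peaks had 0 input reads, and a count of 0 allows up to 3 reads, or 0.163 RPM.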

Other observations

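Mat2a, Malat1, Neat1 and the mitochondrial genes below were chosen after their values were seen. Mat2a, which encodes the enzyme that makes S-adenosylmethionine, is the known mRNA substrate of METTL16, which acts within TACAGAGAA. Its 3' UTR peak at chr6:72432800-72433378 had 1816 IP and 502 input reads and 3.85-fold enrichment (3.49 to 4.26), and a second peak, near the stop codon, had 489 and 173 reads and 3.0-fold (2.53 to 3.6). The first holds TACAGAGAA 3 times. The second peak also holds it, nearer to the stop codon, in a stretch at chr6:72434237-72434261 that is not shown. The names below order only the 3 sites of the first peak. Their stretches are shown with that motif in capitals, all in exon 9 on the minus strand. They lie at chr6:72433274-72433298, chr6:72433159-72433183 and chr6:72432940-72432964.
Mat2a site nearest the stop codon: ggtgtagcTACAGAGAAaccagctt
Mat2a middle site: ggcgtaagTACAGAGAAgccatcac
Mat2a site farthest from the stop codon: tggtgtggTACAGAGAAgccagctt

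The motif, searched on the transcript strand, occurred under 59 of 11585 placed peaks (0.509%). Those peaks had a median of 2.24-fold (2.01 to 2.40), and the others 2.29-fold (2.26 to 2.31).

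The nuclear non-coding RNA Malat1 had a peak of 16242 and 3995 reads with 4.33-fold (4.19 to 4.49) and another with 1.34-fold. Neat1, the scaffold RNA of paraspeckles, had 3 peaks of 1.43, 2.93 and 2.33-fold. The 81 peaks placed on lincRNAs had a median of 2.44-fold (2.11 to 2.96), and 10927 on protein-coding transcripts 2.27-fold (2.25 to 2.30).

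The 2 peaks with the most IP reads lay in mitochondrial transcripts, which the nuclear writer complex does not reach. The 5 peaks of the mitochondrial genome lay in mt-Nd2 (2.02-fold), mt-Nd4 (1.79-fold), mt-Nd5 (3.30 and 1.97-fold) and mt-Cytb (1.53-fold). The largest, in mt-Nd5, had 108809 IP and 58772 input reads. The nuclear peak with the most IP reads was that of Apoa1, given above. Another large one was in the fibrinogen gene Fga, with 63014 and 43735 reads in exon 5 and 1.54-fold (1.52 to 1.55).

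Some of the stronger peaks overlapped no annotated gene. The highest such peak, at chr15:82365204-82365748 with Ndufa6 as the closest gene, had 379 and 35 reads and 11.3-fold (8.15 to 16.8). Another, at chr3:108903835-108904820 with Prpf38b as the closest gene, had 2733 and 403 reads and 7.21-fold (6.51 to 8.04).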
